A study of Mus musculus with 10 samples.

Results

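The 9 genes described here encode transcription factors of the primitive streak: the T-box proteins T (Brachyury), Eomes and Tbx6, the homeodomain proteins Mixl1, Gsc, Lhx1 and Evx1, and the basic helix-loop-helix proteins Mesp1 and Msgn1. They were taken by symbol from a table of 21937 genes, and all 9 were listed. Transcript levels are given in RPKM, a read density corrected for transcript length and library size, in each of 10 libraries of differentiating mouse embryonic stem cells with a C57BL/6 background. SFEB, in which aggregates grow in suspension without serum and tend to neural ectoderm, gave 6 libraries: wild type, Tet3 knockout and Tet3 knockout with Dkk, on day 6 and day 10. A culture containing fetal bovine serum (FBS), which does not favour neural fates, gave the other 4: Tet3-overexpressing cells and their control, on day 4 and day 7.

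Tet3 is a dioxygenase that oxidises methylated cytosine, and Dkk names a family of secreted Wnt inhibitors. The knockout cells derived from mice with floxed Tet3 alleles, and the floxed exon was cut out by transient Cre. The labels do not say how many knockout lines were used, which Dkk protein was given or when, what drove Tet3 in the overexpressing cells, or what the control cells carried. Tet3 stood at 0.96 and 5.87 RPKM in the control and at 12.5 and 14.1 RPKM in the overexpressing libraries, so its level did not overlap between those conditions. In SFEB its whole-gene value does not test the loss of a single exon: 8.11 and 10.2 RPKM in wild type against 6.59 and 14.3 in the knockout. Sequencing depth, estimated from the spacing of low RPKM values, lay between 10100000 and 11300000 reads in 5 SFEB libraries. It was 37400000 reads with Dkk on day 10 and between 17200000 and 44000000 with serum. The list of neural progenitor genes summed to between 314.8 and 1183 RPKM in the SFEB libraries and between 56.3 and 165.5 RPKM in the FBS libraries. Each condition had 1 library a day, so no single comparison has a replicate. In bulk RNA, fewer cells of a type and less RNA per cell cannot be told apart.

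The primitive streak is the groove of the gastrulating embryo through which epiblast cells leave to form mesoderm and endoderm. Wnt3 and Nodal signals start it, with T and Eomes among the first genes to respond. Eomes, Mixl1, Gsc and Lhx1 mark its anterior and endoderm-forming side, Evx1 its posterior side, Mesp1 the first cardiac and cranial mesoderm, and Tbx6 and Msgn1 the presomitic mesoderm that later forms somites. T, Tbx6 and Msgn1 are known targets of Wnt signalling. Lhx1, Evx1 and Eomes are used again in the nervous system, Lhx1 and Evx1 in interneurons of the spinal cord and Eomes in intermediate progenitors of the cortex, and Lhx1 also in the forming kidney.

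The sequences just before the start sites of T, Msgn1, Mesp1 and Tbx6 are shown because 1 arm of the study gave the knockout cells a Wnt inhibitor. RefSeq promoter sequences on GRCm38.p6 were held for 8 of the 9 genes, all but Mixl1, and the 250 bases upstream of each start were searched on both strands. Capitals mark CTTTGA, which reads TCAAAG on the other strand, the core bound by the Wnt effectors TCF and LEF, and in T also AGGTGT, the half-site bound by T-box proteins. The T promoter lies at chr17:8434173-8434422 on the plus strand, that of Tbx6 at chr7:126781233-126781482 on the plus strand, and the stretch of Msgn1 at chr12:11208973-11209198 on the minus strand. Of Mesp1 only 30 bases around its nearer match are shown, chr7:79793611-79793640 on the minus strand. All are written 5′ to 3′ on the strand of the gene.
T: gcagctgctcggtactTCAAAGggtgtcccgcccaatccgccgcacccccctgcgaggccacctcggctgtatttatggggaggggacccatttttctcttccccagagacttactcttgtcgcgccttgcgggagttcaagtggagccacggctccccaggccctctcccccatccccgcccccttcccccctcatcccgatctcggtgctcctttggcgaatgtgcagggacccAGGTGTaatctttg
Msgn1: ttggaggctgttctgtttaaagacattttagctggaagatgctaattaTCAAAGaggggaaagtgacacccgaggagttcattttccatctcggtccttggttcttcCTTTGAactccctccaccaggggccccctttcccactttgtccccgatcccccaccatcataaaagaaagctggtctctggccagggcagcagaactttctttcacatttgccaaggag
Mesp1: ccctcctggctcgagccggCTTTGAtatgc
Tbx6: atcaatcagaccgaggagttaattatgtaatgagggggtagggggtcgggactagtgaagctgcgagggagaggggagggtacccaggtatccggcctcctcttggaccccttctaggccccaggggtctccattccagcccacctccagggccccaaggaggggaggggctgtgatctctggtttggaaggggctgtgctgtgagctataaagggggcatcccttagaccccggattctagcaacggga
The TCF/LEF core occurred in 3 of the 8 promoters, those of T, Msgn1 and Mesp1, against 13.8% of 32851 promoters. Msgn1 and Mesp1 each held 2 copies, and 2 or more stood in 1.4% of all promoters. Copies began at base -234 in T, at -202 and -143 in Msgn1, and at -72 and -31 in Mesp1, counted from the start site. The T-box half-site was found in T at -14, in Mesp1 at -233 and in Evx1 at -38, against 11.8% of promoters. In T and Evx1 it overlapped an E-box (CANNTG), the core of basic helix-loop-helix binding. E-boxes stood in 5 of the 8 promoters and in 66.2% of all. The SMAD box GTCTG, a core bound by effectors of Nodal and BMP, stood in 4 of the 8 and in 42.2% of all. A TATA box (TATAAA) stood in Gsc and Tbx6 and in 12.4% of all. The Tbx6 window held no TCF/LEF core, which concerns only these letters and this window.

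CpG density, relevant to an enzyme that acts on methylated CpG, split the promoters. The ratio of observed to expected CpG was 1.06 in Gsc, 0.99 in Lhx1, 0.68 in Evx1, 0.62 in Eomes and 0.59 in T, all above the median of 0.37 over all promoters. It was 0.28 in Tbx6, 0.25 in Msgn1 and 0.11 in Mesp1, below that median. The 3 below the median belong to Tbx6, Msgn1 and Mesp1, which act in mesoderm after the streak, and no methylation was measured in the libraries used here.

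**Figure D1:**
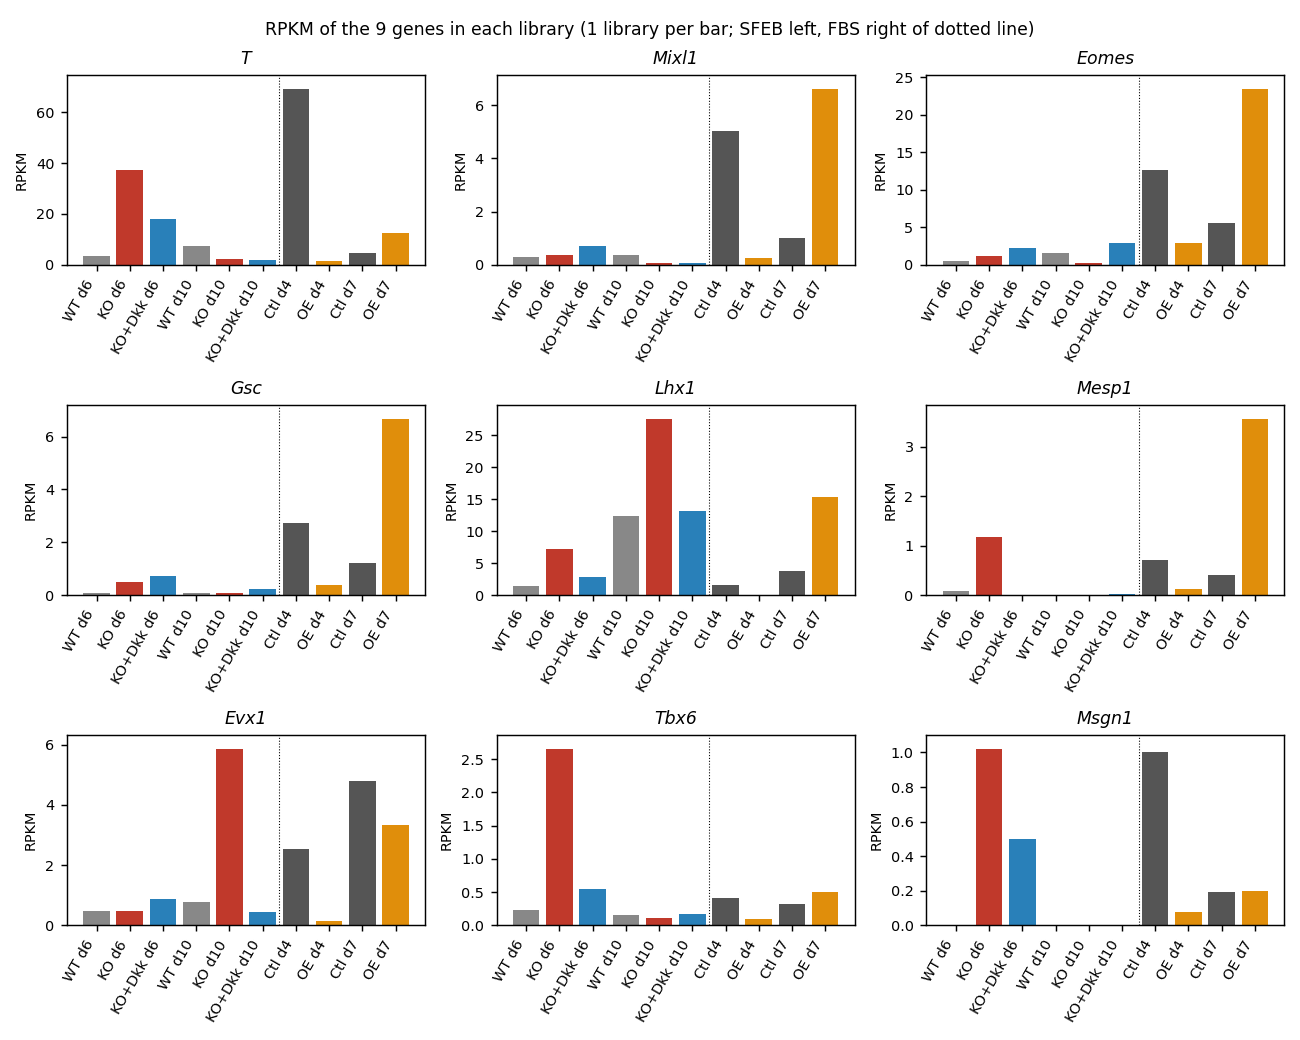
RPKM of each of the 9 genes (y axis, from 0, with its own scale) in the 10 libraries (x axis), 1 bar per library. WT is wild type, KO Tet3 knockout, KO+Dkk Dkk-treated knockout, Ctl control, OE Tet3-overexpressing and d the day. T is highest at 69.2 RPKM in the control on day 4, and Lhx1 at 27.6 RPKM in the knockout on day 10.

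Across the 10 libraries the genes fell into several patterns, shown in the plot of RPKM by library. T had the highest level of any of the 9, 69.2 RPKM in the FBS control on day 4, followed by 37.2 in the knockout on day 6 and 18.0 in the Dkk-treated knockout on day 6. Of its lowest 3 levels, 2.19, 1.90 and 1.44 RPKM, neither 2.19 and 1.90 nor 1.90 and 1.44 differed beyond counting error, while 2.19 differed from the next higher, 3.64. Eomes, Mixl1 and Gsc were highest in overexpressing cells on day 7 (23.5, 6.62 and 6.67 RPKM) and next in the control on day 4 (12.7, 5.02 and 2.73 RPKM). They stayed low in SFEB, where Mixl1 reached at most 0.70 and Gsc at most 0.72 RPKM. Lhx1 and Evx1 peaked instead in a late neural library, the knockout on day 10, at 27.6 and 5.85 RPKM. Tbx6 and Msgn1 peaked in the knockout on day 6, at 2.65 and 1.02 RPKM, although the 1.02 of Msgn1 was within counting error of the 1.0 RPKM in the FBS control on day 4. Mesp1 was highest at 3.56 RPKM in overexpressing cells on day 7.

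The summed level of the 9 genes ranged from 5.48 RPKM in overexpressing cells on day 4 to 95.9 in the control on day 4. T made up 72.2% of the sum in that control and 71.9% in the knockout on day 6, but 6.0% in the knockout on day 10, where Lhx1 led. Pairs of members differed in how alike their profiles were, as a Pearson correlation of log2(RPKM + 0.5) over the 10 libraries, which share cultures and days and give a description only. Mixl1 and Gsc had 0.95, Eomes and Gsc 0.92, and T and Msgn1 0.91. Tbx6 and Msgn1 had 0.78, whereas T had -0.01 with Lhx1 and Tbx6 0.05 with Eomes.

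Among 13757 genes with 1 RPKM in at least 1 library, the gene nearest to T was Msgn1 (0.905) and the gene nearest to Tbx6 was Noto (0.932), a notochord transcription factor. In the day 6 knockout Noto was listed at 2.54 RPKM without and 0.94 RPKM with Dkk, and elsewhere at most at 0.29. Hesx1, an anterior homeobox gene of epiblast and prechordal region, was nearest to Gsc (0.967) and to Eomes (0.937). Nearest to Mixl1 after Gsc was Mir302d (0.945), from a microRNA cluster of pluripotent cells, listed at 5.16 RPKM in the day 4 control, at 7.79 in the day 7 overexpressing library and at 0 in the other 8. Wnt11, which encodes a Wnt ligand, was the third nearest to Evx1 (0.900), after Nipal4 (0.935) and St6galnac4 (0.922). The nearest to Lhx1 was Gdpd5 (0.903), to Mesp1 Aim1 (0.900) and to Msgn1 Ifi27l2a (0.941).

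On day 6 of SFEB, T, the mesoderm genes Mesp1, Tbx6 and Msgn1, and Lhx1 were higher in the Tet3 knockout than in wild type. Eomes, Mixl1, Gsc and Evx1 were not called higher. A gene was compared where it reached 1 RPKM in at least 1 library of its culture, and called higher or lower at a 2-fold difference of log2(RPKM + 0.5). By that rule 5 of the 9 genes were higher and 0 were lower, against 4.88% and 2.18% of 12912 genes. Of the 9, 7 passed the level filter, and Mesp1, Tbx6 and Msgn1 passed it only through this knockout library, so their call follows in part from the filter.

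T, which specifies mesoderm and maintains the streak, had 3.64 RPKM (wild type), 37.2 (knockout) and 18.0 (with Dkk) on day 6, the last label standing for the Dkk-treated knockout. On day 10 the same conditions had 7.52, 2.19 and 1.90 RPKM. Only on day 6 did both knockout libraries exceed wild type. The day 6 knockout level was 10.2-fold that of wild type, a log2 difference of 3.19. The counting interval of the ratio, which is 95% Clopper-Pearson on estimated reads, carries no pseudocount and covers counting error only, was 3.01 to 3.72.

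Tbx6, which commits streak cells to paraxial rather than neural fate, had 0.23 RPKM (wild type), 2.65 (knockout) and 0.55 (with Dkk) on day 6 and 0.15, 0.11 and 0.17 RPKM on day 10. The untreated knockout on day 6 stood apart from the other 5 libraries. Its ratio to wild type had a counting interval of 2.07 to 5.46 on the log2 scale, from an estimated 47 and 4 reads. Msgn1, which drives cells from the streak into presomitic mesoderm, was listed on day 6 at 0 (wild type), 1.02 RPKM (knockout) and 0.50 RPKM (with Dkk), and at 0 in all 3 libraries of day 10. These levels rest on an estimated 6 and 3 reads.

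Mesp1 had 0.09 RPKM (wild type), 1.17 (knockout) and 0 (with Dkk) on day 6 and 0, 0 and 0.02 RPKM on day 10. Among the SFEB libraries it had more than 1 estimated read only in the day 6 knockout, with 15. Lhx1, a partner of Otx2 and Foxa2 in the anterior streak and node, had in the same order 1.39, 7.17 and 2.80 RPKM on day 6 and 12.4, 27.6 and 13.2 RPKM on day 10. The untreated knockout was the highest of the 3 on each day. On day 6 it was 5.16-fold above wild type, a log2 difference of 2.02 with a counting interval of 1.94 to 2.81.

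Eomes, required for endoderm and the earliest mesoderm, had 0.47, 1.20 and 2.27 RPKM on day 6 and 1.59, 0.30 and 2.93 RPKM on day 10 in that order. The day 6 difference of the knockout was 0.81 and did not reach 2-fold. Evx1 was at 0.48 and 0.47 RPKM in wild type and knockout on day 6, a log2 difference of -0.01. Mixl1 stood at 0.30, 0.38 and 0.70 RPKM and Gsc, the organizer homeobox gene, at 0.08, 0.49 and 0.72 RPKM on that day. On day 10 Mixl1 stood at 0.38, 0.08 and 0.08 RPKM and Gsc at 0.07, 0.08 and 0.23 RPKM. Neither gene reached 1 RPKM in any SFEB library.

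Genes downstream of the streak were read from 16 lists of pathway and cell type genes, described by counts and medians on the same scale. On day 6, 12 of 15 presomitic and paraxial mesoderm genes that passed the filter were higher in the knockout and 0 were lower, with a median log2 difference of 2.03 against 0.00 over all genes tested. Meox1, a somite homeobox gene, had 0.27 RPKM (wild type) and 161.6 RPKM (knockout). Aldh1a2, which makes retinoic acid in paraxial mesoderm, was at 0.39 and 74.2 RPKM. Hes7, the oscillating repressor of the segmentation clock, and Ripply2, a Tbx6 target, named after their values were seen, were at 0 and 0.20 RPKM in wild type and at 3.51 and 1.54 in the knockout. Of node and notochord genes, 6 of 9 were higher and 0 lower, with a median of 2.25. Among them were Cer1, a secreted Nodal antagonist (0.22 and 12.4 RPKM), and Shh (0.33 and 6.60 RPKM). Some of these genes passed the filter only through the day 6 knockout, so that their call follows in part from the filter: 3 of the 15 paraxial genes (Hes7, Mesp2 and Ripply2) and 1 of the 9 node genes (Noto).

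The lists of signals that induce the streak differed in their counts on day 6. Of 15 Nodal pathway genes 2 were higher and 1 lower, and Nodal itself had 1.59 RPKM (wild type) and 1.94 RPKM (knockout). Of 11 FGF genes 0 were higher and 0 lower. Of 12 BMP genes 5 were higher and 0 lower, among them the ligand gene Bmp4 (0.25 and 1.80 RPKM) and the BMP target Id1 (7.52 and 28.2 RPKM). Of 16 Wnt genes 5 were higher and 1 lower, the higher ones including the posterior genes Cdx2 (0.82 and 20.4 RPKM) and Cdx1 (0 and 6.41 RPKM), of which Cdx1, like Cdx4, passed the filter only through this knockout library. Wnt8a, a streak Wnt ligand, was at 1.16 and 6.56 RPKM, while Axin2, a feedback target of Wnt, was at 19.9 and 10.3 RPKM. Of 12 ingression genes 5 were higher and 0 lower, and these included genes with opposed roles. Snai1, a repressor of E-cadherin, was at 0.80 and 5.98 RPKM, and Twist1 and Snai2 were also higher. So were the epithelial genes Cdh1, which encodes E-cadherin (11.5 and 23.9 RPKM), and Epcam (7.22 and 18.3 RPKM), which ingressing cells are known to lower. Of 11 epiblast genes 0 were higher and 0 lower, and Pou5f1 was at 35.8 and 36.6 RPKM.

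Markers of other cell types also differed beside these members on day 6. Of 12 neural progenitor genes 0 were higher and 3 lower in the knockout, with sums of 513.5 RPKM (wild type) and 314.8 RPKM (knockout). Of 12 lateral and cardiac mesoderm genes 9 were higher and 0 lower, with sums of 8.2 and 42.6 RPKM. Of 10 trophoblast genes 6 were higher and 0 lower, with sums of 51.4 and 221.1 RPKM, made up mostly of the keratins Krt8 and Krt18, which many epithelia express. The others called higher were Cdx2 (0.82 and 20.4 RPKM), Gata3 (0.12 and 1.41 RPKM), Hand1 (0.57 and 2.45 RPKM) and Krt7. Elf5 and Tpbpa were low in both libraries, at 0.04 and 0.07 RPKM in wild type and 0.04 and 0 RPKM in the knockout. The part of these cell types in the levels of the 9 genes was not tested.

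**Figure D2:**
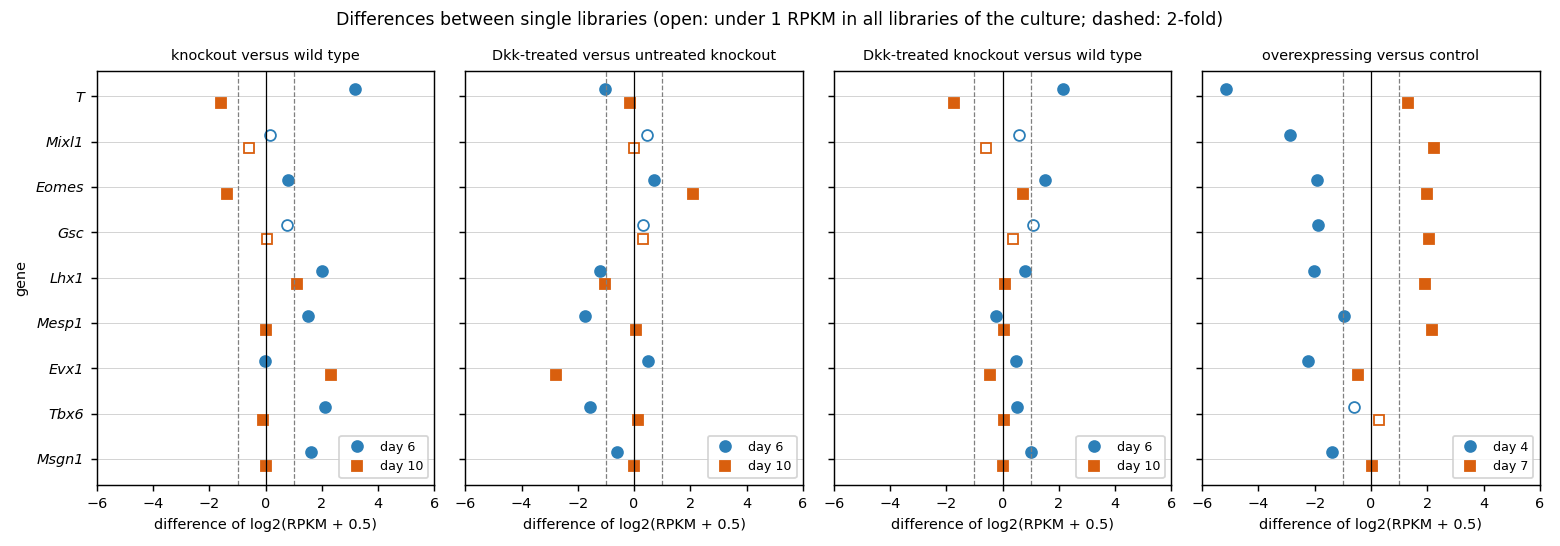
Difference of log2(RPKM + 0.5) between 2 single libraries (x axis) for each gene (y axis) in 4 comparisons, circles for the earlier and squares for the later day. Open symbols mark genes under 1 RPKM in all libraries of the culture and dashed lines a 2-fold difference. In the panel of overexpressing versus control, T lies at -5.17 on day 4 and at 1.31 on day 7.

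By day 10 T, Mesp1, Tbx6 and Msgn1 were low in the knockout, and Lhx1 and Evx1 were higher there than in wild type. Of the 9 genes 2 were higher and 2 (T and Eomes) lower, against 8.26% of genes higher and 1.96% lower. T was lower by 1.58 on the log2 scale (counting interval of the ratio -2.26 to -1.31) and Eomes by 1.39 (-3.39 to -1.46). Lhx1 was 2.23-fold higher, a log2 difference of 1.12 (1.01 to 1.31). Evx1 had 0.76 RPKM (wild type), 5.85 (knockout) and 0.43 (with Dkk). The untreated knockout was the only SFEB library with Evx1 at 1 RPKM or more, so the call of Evx1 follows in part from the filter. The log2 difference of Evx1 from wild type was 2.33 (2.32 to 3.59). The antisense gene Evx1os overlaps Evx1, and Gm33460 overlaps Eomes, in the GENCODE annotation. The strand setting of the counting is not given in the sources used here, so reads of these pairs cannot be told apart.

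Several later mesoderm genes were still called higher in the day 10 knockout. Of 15 paraxial genes 6 were higher and 1 lower, with a median of 0.48, and Aldh1a2 was at 0.70 RPKM (wild type) and 77.7 RPKM (knockout) and Foxc1 at 0.66 and 9.07 RPKM. Of 12 lateral and cardiac genes 7 were higher and 0 lower, with a median of 1.14. Among them were Myl7, an atrial myosin gene, at 0.75 and 35.9 RPKM and Tnnt2, a cardiac troponin gene, at 1.03 and 24.4 RPKM.

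Lhx1 and Evx1 stood higher on day 10 beside markers of spinal and hindbrain interneurons. Of 12 such genes 3 were higher and 0 lower in the knockout, with a median of 0.73. Foxd3, 1 of the higher, passed the filter only through the untreated knockout of day 10, so its call follows in part from the filter. The summed level of the 12 genes was 161.7 RPKM in that library, against 113.4 in wild type. The inhibitory transporter gene Slc32a1 was at 3.23 and 6.52 RPKM, and Lhx5, a paralog and partner of Lhx1, at 10.8 and 18.2 RPKM, but neither was called. Gad1, at 6.73 and 6.03 RPKM, and Lbx1, at 4.99 and 4.55 RPKM, were slightly lower in the knockout. Evx2, the paralog of Evx1 in V0 interneurons, had 0.37 (wild type), 0.45 (knockout) and 1.19 RPKM (with Dkk), an order other than that of Evx1. Of 7 kidney and intermediate mesoderm genes 3 were higher and 0 lower, led by Osr1 (0.04 and 3.14 RPKM). Pax8 was counted as higher in both this list and the interneuron list. On day 6 the interneuron list went the other way from Lhx1: 0 of 12 were higher and 4 (En1, Pax2, Lhx5 and Pax8) lower in the knockout. Its sums were 105.6 RPKM (wild type) and 37.6 RPKM (knockout), mostly from Dbx1 (52.9 and 31.3) and En1 (38.5 and 2.73). Gad1, Gad2, Slc32a1 and Lbx1 were at 0.57 RPKM or less in both libraries. The part of these cells in the Lhx1 and Evx1 levels was not tested.

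**Figure D3:**
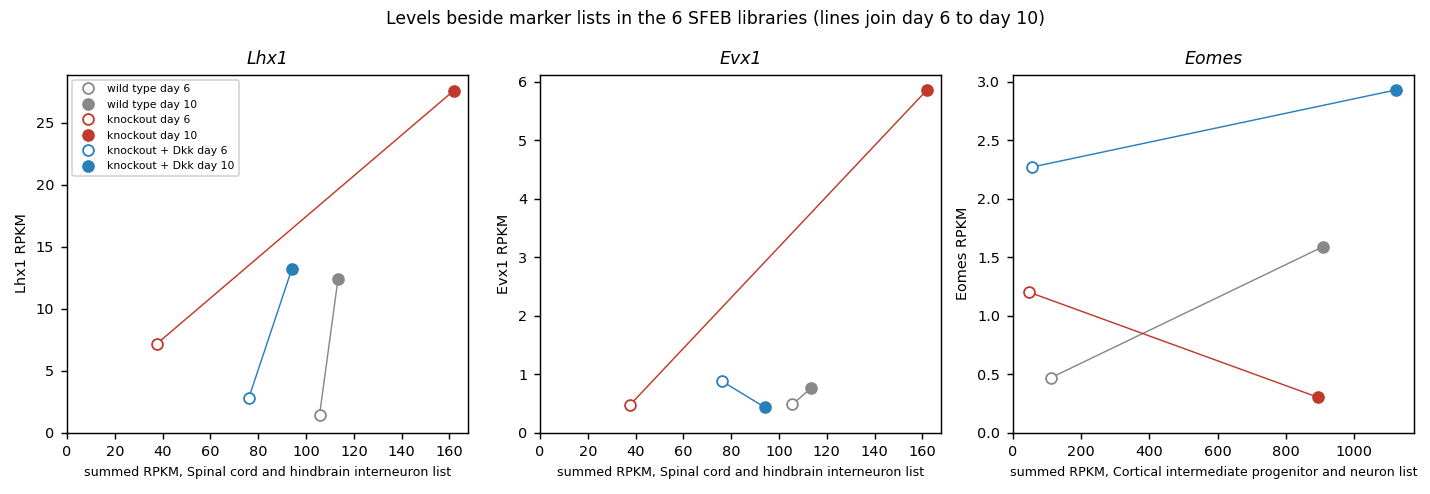
Levels of Lhx1, Evx1 and Eomes (y axis, RPKM) against the summed RPKM of a neural marker list (x axis) in the 6 SFEB libraries, open circles for day 6 and filled for day 10, joined by lines within a condition. The knockout on day 10 has the highest interneuron sum, 161.7 RPKM, of which Dbx1 is 94.1, with the highest Lhx1 and Evx1. The cortical sum is 1124 RPKM at the highest Eomes, 2.93 RPKM. It is 55.4 RPKM at the second highest, 2.27 RPKM, and 895.8 RPKM at the lowest, 0.30 RPKM.

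With Dkk, the knockout on day 6 held less T, Tbx6, Mesp1 and Lhx1, while Eomes was not lower. Of the 9 genes 0 were higher and 4 were lower than in the untreated knockout, against 2.18% and 3.57% of genes. This comparison shares the untreated knockout library with the one against wild type, so a high level there enters both. Mesp1 and Tbx6 passed the filter only through that library, so their call follows in part from the filter. T was lower by 1.03 on the log2 scale, with a counting interval of -1.22 to -0.87 that includes a 2-fold difference. Tbx6 was lower by 1.58 (-3.42 to -1.27), and Lhx1 by 1.22 (-1.68 to -1.04). Mesp1 was listed at 0 with Dkk. Eomes, at 2.27 against 1.20 RPKM, had a positive difference of 0.70 (0.39 to 1.48), short of 2-fold, and Msgn1 had -0.60 with an interval that spans 0.

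Against wild type, the Dkk-treated knockout on day 6 had a higher level of T. T was at 18.0 against 3.64 RPKM, 4.95-fold, a log2 difference of 2.16 (1.95 to 2.69). Eomes (1.51, counting interval 1.51 to 3.11) and Msgn1 were also called, so 3 of the 9 were higher and 0 lower, against 1.58% and 0.976% of genes. Msgn1 rests on an estimated 3 reads against 0.

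The paraxial genes stood differently from T in that library. Of 15 presomitic and paraxial genes, 11 were lower and 1 higher with Dkk than without, with a median of -2.24. Hes7, Mesp2 and Ripply2 passed the filter only through the untreated knockout, so this count follows in part from the filter. Meox1 stood at 1.44 RPKM with Dkk and 161.6 without. Against wild type only 3 of the 15 were higher in the Dkk-treated knockout and the median was 0.31, beside the 2.16 of T. Cer1, at 3.39 RPKM, and Noto, at 0.94, lay between wild type and the untreated knockout, as T did. Wnt genes went both ways with Dkk: 3 of 16 were higher and 5 lower. Among the lower ones Cdx1 and Cdx4 passed the filter only through the untreated knockout. Axin2 was at 32.7 RPKM with Dkk and 10.3 without, and Cdx2 at 1.27 and 20.4 RPKM. Wnt8a was at 2.10 and 6.56 RPKM in the same order. Whether Dkk changed Wnt signalling in these cells was not tested.

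On day 10 Dkk went with less Evx1 and Lhx1 and more Eomes in the knockout. Of the 9 genes 1 (Eomes) was higher and 2 (Lhx1 and Evx1) lower, against 1.70% and 5.23% of genes. Evx1 was lower by 2.77 on the log2 scale (-4.27 to -3.30). It passed the filter only through the untreated knockout of that day, so its call follows in part from the filter. Lhx1, 13.2 against 27.6 RPKM, was lower by 1.03 (-1.17 to -0.95), which includes a 2-fold difference. Eomes was at 2.93 against 0.30 RPKM, a log2 difference of 2.10 (2.42 to 4.21, an interval without the pseudocount). Lhx1 in the Dkk-treated knockout, 13.2 RPKM, was within counting error of wild type, 12.4 RPKM (0.09, with -0.04 to 0.24).

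These differences again lay beside neural genes. Of 12 interneuron genes 0 were higher and 6 lower with Dkk, and Foxd3, 1 of the lower, passed the filter only through the untreated knockout. The summed levels were 94.1 RPKM with Dkk and 161.7 without, of which Dbx1 was 65.9 and 94.1. Of 10 cortical genes 2 were higher and 2 lower, and Tbr1, called higher, passed the filter only through the library with Dkk. Tbr1, which follows Eomes in cortical neurons, was at 3.71 RPKM with Dkk, 0.21 without and 0.60 in wild type. Lhx2, a forebrain gene, was at 38.6, 2.16 and 16.1 RPKM and Otx2 at 73.6, 7.10 and 26.3 RPKM in the same order, the order of Eomes on day 10. Pax6, of the same neural progenitor list, had another order, 14.9, 29.6 and 23.8 RPKM. On day 6 the order was not shared: Eomes had 2.27, 1.20 and 0.47 RPKM, Lhx2 1.68, 0.30 and 0.77, and Otx2 64.2, 5.27 and 32.0. The summed cortical list was 1124 RPKM with Dkk, where Tubb3, a general neuronal gene, made up 884.9, and 895.8 RPKM in the untreated knockout. The second highest Eomes in SFEB, 2.27 RPKM with Dkk on day 6, lay at a cortical sum of 55.4 RPKM. The part of these cells in the Eomes level was not tested. Against wild type on day 10, 0 of the 9 genes were higher and 1 was lower in the Dkk-treated knockout, T by 1.74 (-2.32 to -1.66), against 4.59% and 1.68% of genes.

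Between day 6 and day 10 the SFEB conditions took different courses for these genes. In wild type Eomes and Lhx1 were higher on day 10 and 0 of the 9 were lower, against 16.9% and 7.98% of genes. T in wild type was at 3.64 and 7.52 RPKM, a log2 difference of 0.95 (0.65 to 1.46). In the knockout Lhx1 and Evx1 were higher on day 10 and 5 genes were lower (T, Eomes, Mesp1, Tbx6 and Msgn1), against 21.1% and 8.01%. Mesp1, Tbx6 and Msgn1 passed the filter only through the knockout on day 6, and Evx1 only through that on day 10. Their calls thus follow in part from the filter. Of the lower genes T had the largest difference, 37.2 RPKM on day 6 and 2.19 on day 10, lower by 3.81 (-4.53 to -3.66). In the Dkk-treated knockout Lhx1 was higher and T and Msgn1 lower, against 17.6% and 6.81%, and Eomes was at 2.27 and 2.93 RPKM. Lhx1 was the member called higher on day 10 in each of the 3 conditions, by 2.77, 1.87 and 2.06.

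In FBS on day 4, Tet3-overexpressing cells held less of nearly every streak gene than control cells. Of the 9 genes 0 were higher and 7 lower, all but Mesp1 and Tbx6, against 1.72% and 3.47% of 12387 genes. The median over all 9 was -1.93 on the log2 scale, beside -0.07 over all genes tested. In this culture 8 of the 9 passed the filter. Tbx6 did not, Msgn1 passed only through the control on day 4, and Mesp1 only through overexpressing cells on day 7.

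T had 69.2 RPKM (control) and 1.44 RPKM (overexpressing) on day 4 and 4.72 and 12.5 RPKM on day 7. The control was above the overexpressing library on day 4 and below it on day 7. The day 4 control level was 48.1-fold that of overexpressing cells, a log2 difference of -5.17 (-5.97 to -5.24, without pseudocount). Eomes had 12.7 and 2.95 RPKM on day 4 and 5.55 and 23.5 RPKM on day 7, differences of -1.93 (-2.30 to -1.91) and 1.99 (1.93 to 2.23). Tbx6 was at 0.41 and 0.10 RPKM on day 4 and at 0.32 and 0.50 on day 7, at most 0.50 RPKM in this culture.

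The homeobox members followed the same order as T and Eomes, except for Evx1. Mixl1, needed for endoderm and for orderly exit from the streak, had 5.02 and 0.25 RPKM on day 4 and 1.02 and 6.62 RPKM on day 7. Its differences were -2.88 (-5.24 to -3.53) and 2.23 (2.30 to 3.13). Gsc stood at 2.73 and 0.38 RPKM on day 4 and at 1.22 and 6.67 on day 7, differences of -1.88 (-3.85 to -1.94) and 2.06 (1.95 to 2.99). Lhx1 stood at 1.64 and 0.02 RPKM on day 4, the latter an estimated 2 reads, and at 3.70 and 15.3 on day 7. Its differences were -2.04 (-9.20 to -4.28) and 1.92 (1.88 to 2.23). All 3 thus had the control higher on day 4 and the overexpressing cells higher on day 7. Evx1 stood at 2.52 and 0.14 RPKM on day 4 and at 4.79 and 3.34 on day 7, differences of -2.24 (-5.32 to -3.24) and -0.46 (-0.80 to -0.25), so its control library was the higher on both days.

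Of the helix-loop-helix members, Mesp1 had 0.70 and 0.12 RPKM on day 4 and 0.41 and 3.56 RPKM on day 7. Its day 7 difference was 2.16 (2.28 to 4.05), and its day 4 difference, -0.95 (-5.07 to -1.08), was just under 2-fold with the pseudocount. Msgn1 stood at 1.0 and 0.08 RPKM on day 4 and at 0.19 and 0.20 on day 7. Its day 4 call rests on an estimated 27 reads against 1.

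On day 7, therefore, 6 of the 9 genes were higher and 0 lower in overexpressing cells: T, Mixl1, Eomes, Gsc, Lhx1 and Mesp1. The share of all genes was 6.96% higher and 11.1% lower. Within control cells 0 of the 9 were higher and 4 lower on day 7 than on day 4 (T, Mixl1, Eomes and Msgn1), against 11.5% and 8.71% of genes. Within overexpressing cells 7 were higher and 0 lower, all but Tbx6 and Msgn1, against 3.49% and 1.20%. The comparisons by day and by condition use the same 4 libraries.

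The inducing signals were not uniformly low in overexpressing cells on day 4. Of 14 Wnt genes 7 were lower and 1 higher, with Wnt3, the ligand that starts the streak, at 7.61 RPKM (control) and 1.02 RPKM (overexpressing), Wnt8a at 39.99 and 4.56, and Sp5, a direct Wnt target, at 5.56 and 0.13. Fgf8, needed for cells to leave the streak, was at 55.3 and 2.95 RPKM, while 12 FGF genes in all counted 1 higher and 2 lower. Of 15 Nodal pathway genes 1 was higher and 2 lower. Nodal was at 61.7 and 42.9 RPKM and its target Lefty1 at 115.1 and 113.0 RPKM. Epiblast genes were likewise close, with 1 of 12 higher and 1 lower and Pou5f1 at 1118 and 1186 RPKM.

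On day 7 the members stood beside high epiblast and low lateral mesoderm genes in overexpressing cells. Of 12 epiblast genes 9 were higher and 0 lower, with Pou5f1 at 206.9 RPKM (control) and 879.9 RPKM (overexpressing). Of 13 lateral and cardiac genes 0 were higher and 13 lower, with Hand1 at 157.5 and 5.63 RPKM, and of 12 BMP genes 0 were higher and 8 lower. Of the 13 lateral and cardiac genes 5 passed the filter only through the control on day 7, as did 2 of the visceral endoderm genes given next. Of 15 Nodal pathway genes 7 were higher and 2 lower, led by Cer1 (3.0 and 24.7 RPKM) and Lefty1 (10.7 and 56.5 RPKM). Of 12 visceral endoderm genes 1 was higher and 8 lower. Their summed level was 967.6 RPKM in control and 419.7 in overexpressing cells, of which Spink1 alone made up 676.0 and 376.7 RPKM. That list bears on Eomes, Gsc and Lhx1, which visceral endoderm also expresses. Ttr, a defining gene of it, was at 76.1 and 3.23 RPKM. The trophoblast list, relevant to Eomes, had 1 of 10 higher and 4 lower, with Cdx2 at 44.9 RPKM (control) and 0.93 RPKM (overexpressing). Gata3, 1 of the lower, passed the filter only through the control on day 7. The part of visceral endoderm and trophoblast cells in the levels of these members was not tested.

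**Figure D4:**
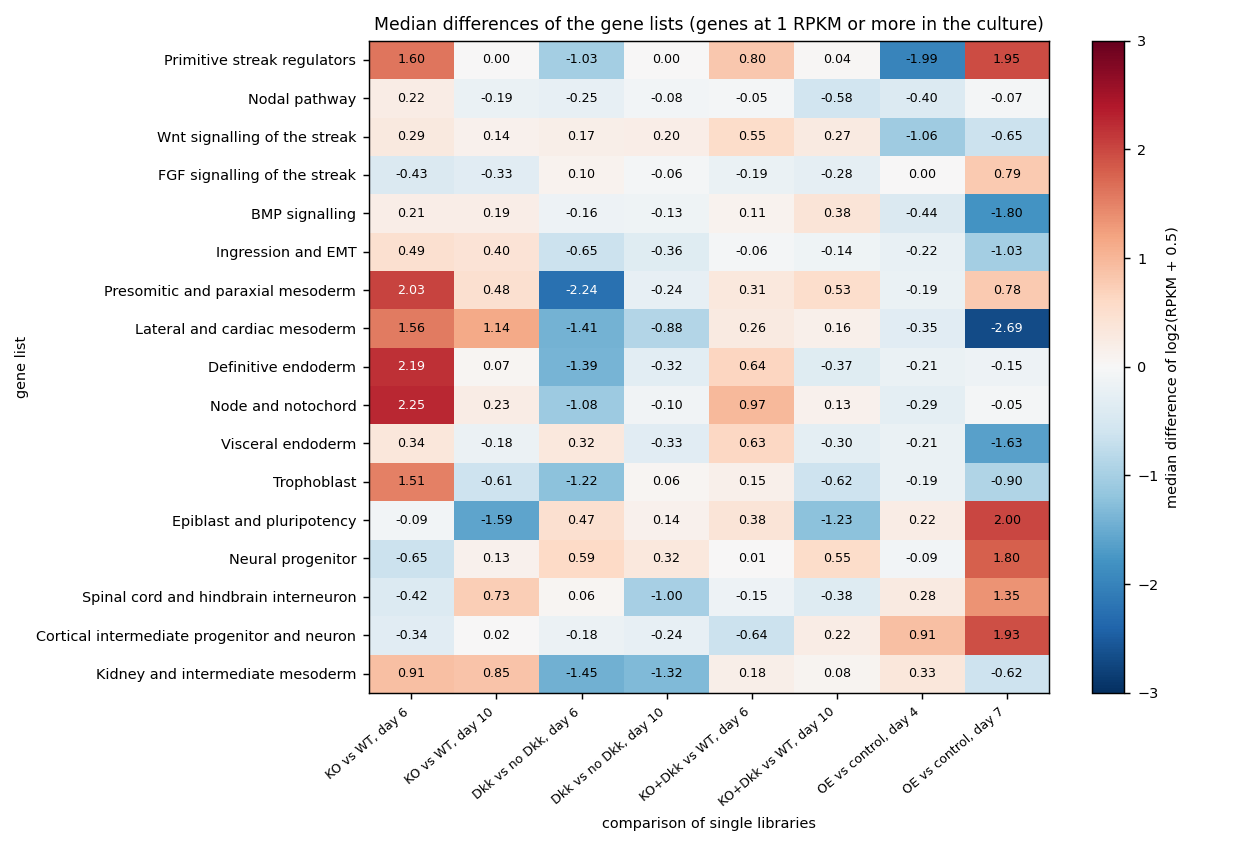
Median difference of log2(RPKM + 0.5) over the genes of each list that passed the filter (rows) in 8 comparisons of single libraries (columns), coloured from blue (lower) to red (higher) and printed in each cell. The 9 genes have 1.60 in the knockout on day 6, -1.99 in overexpressing cells on day 4 and 1.95 on day 7, over the members that passed. The Epiblast list has 0.22 and 2.0 on those 2 days.

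The only test the design allows treats the 2 days of a condition as repeats, in an additive model with condition and day within each culture, fitted with limma to 13757 genes of all 10 libraries (3 residual degrees of freedom). It asks for a difference of the same sign on both days. Of the 9 genes 0 passed an adjusted p of 0.05 in any of the 4 contrasts, and 0 of them had an unadjusted p under 0.05. Over all genes the model called 27 higher and 2 lower (0.196% and 0.0145%) in knockout against wild type, with 2017 genes at an unadjusted p under 0.05. It called 2 higher and 16 lower (0.0145% and 0.116%) with Dkk, 1 higher and 0 lower (0.00727% and 0.00%) for Dkk-treated knockout against wild type, and 6 higher and 7 lower (0.0436% and 0.0509%) with overexpression. The smallest adjusted p of a member in limma was 0.368, for Evx1 in overexpression (-1.35 with a standard error of 0.77), and the next 0.416, for Lhx1 in knockout against wild type (1.57 with a standard error of 0.80). T had 0.81 with a standard error of 1.59 there and -1.93 with 1.59 in overexpression, its sign differing between days in each. In a limma fit of the 6 SFEB libraries alone, with 2 residual degrees of freedom, Lhx1 passed in knockout against wild type, with a standard error of 0.24 and an adjusted p of 0.0357. That fit called 195 genes higher and 58 lower (1.51% and 0.449%) of 12912. Of the listed genes, Foxc1 and Aldh1a2 of the paraxial list were called higher in the knockout, and Aldh1a2 lower with Dkk, in the limma fit of all libraries. That fit also called Sox1 of the neural progenitor list higher in overexpressing than in control cells.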

How the data were processed

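Total RNA was sequenced on SOLiD instruments in 10 libraries, each placed by its title. The authors deposited a table of RPKM values for 21937 genes. HTSeq and the mouse build mm9 are named in the submitters' processing notes. Aligner, annotation and strand setting were not given in the sources used here. RPKM values are not counts, so no count model was run. Library totals were estimated from the steps between low RPKM values, with transcript lengths from GENCODE M21, and 66.8% to 75.3% of the values used came within 0.15 read of a whole number. The day 10 library with Dkk scored higher at 75100000 reads than at the 37400000 used, so its depth is the least certain. From these reads came 95% Clopper-Pearson intervals, which cover counting error only.

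Differences are of log2(RPKM + 0.5), which understates those of low genes. Genes at 1 RPKM in at least 1 library of the culture were compared and called at 2-fold. The limma 3.58.1 fit (R 4.3.3, trend, Benjamini-Hochberg over all genes) was tested on simulated data. Its residual is how far a difference on 1 day departs from that on the other. Its p-values therefore measure no spread between cultures of the same condition. The members and lists were chosen with earlier results of these data known. All 192 list names matched, 5 through another symbol. Beside the members, up to 4 genes of a list were named by the size of their difference, or as the source of a marker statement, and the 3 most correlated genes of each member were listed, of which some are named. Nodal, Pou5f1, Wnt8a, Axin2, Lhx5, Evx2, Slc32a1, Lefty1, Noto, Hes7, Ripply2, Mesp2, Cdx4 and Cdh1 were named after their values were seen where they lie outside that rule. Dbx1, Gad1, Gad2, Lbx1, Krt7, Hand1 and Spink1 were likewise named after their values were seen. Promoters are RefSeq on GRCm38.p6. Alternatives were pseudocounts of 0.1 and 1, no filter, a filter of 5 RPKM, a 4-fold threshold, rescaled and centred values, and fits of single cultures.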

Additional observations from a re-analysis of the deposited data

Results flagged for a closer look

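Some members had opposite differences on the 2 days of a culture, each at 2-fold or more and each from 1 library per condition and day. The values here are the later minus the earlier log2 difference, and the difference between days was not tested. For T in the knockout against wild type it was -4.77, and in the Dkk-treated knockout against wild type, which shares the wild-type libraries, it was -3.90. In overexpressing against control cells it was 6.48 for T, 5.11 for Mixl1, 3.92 for Eomes, 3.94 for Gsc and 3.96 for Lhx1, all from the same 4 libraries.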

How the results depend on the processing

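Of the counts and values recomputed under other settings, 0 changed direction where called. For the single-library comparisons this was fixed in advance and is no test. Another pseudocount, filter or threshold cannot change the sign of a difference, and rescaling or centring shifted differences by less than a call requires. Among the recomputed main results, 18 moved, 96 stayed the same and 1 became stronger. No paired analysis was possible because each group has 1 library and the labels give no replicate numbers. With a filter of 5 RPKM, fewer members could be counted: 2 in knockout against wild type on day 6, 2 for Dkk on day 6, 1 for Dkk-treated knockout against wild type on day 6, 1 in wild type over time and 3 in the knockout over time. At 4-fold the counts were 3 and 1 for knockout against wild type on days 6 and 10, 0 for Dkk on day 6, 1 and 0 for Dkk-treated knockout against wild type on days 6 and 10, 4 and 3 for overexpression on days 4 and 7, and, over time, 3 in the knockout, 1 in wild type and 1 in control. With each library rescaled to the same sum, which shifts all genes of the Dkk-treated knockout against wild type on day 10 by -0.141 (log2) and lets more genes pass the filter, that comparison counted 2 (T and Mixl1) and the Dkk-treated knockout over time 5. A pseudocount of 1 left 1 (Lhx1) in wild type over time. In the limma fit of 1 culture 1 member, Lhx1, was called in knockout against wild type. Depth limits Mesp1, Msgn1 and Tbx6 in SFEB, where most levels rest on a few estimated reads.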
